A study of Mus musculus with 11 samples.

Results

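A set of 10 genes of the p53 response and of cell cycle arrest were followed in mouse kidney cells after ureteral obstruction. They are Cdkn1a, Cdkn2a, Cdkn2b, Mdm2, Ccng1, Bbc3, Pmaip1, Phlda3, Plk2 and Gdf15, found by symbol, and all 10 were present among the 13985 genes of the deposited gene table. The libraries came from adult C57BL/6 mice: 3 of control kidneys, 4 taken at day 3 of unilateral ureteral obstruction and 4 taken at day 7. In this operation, abbreviated UUO, the ureter of one kidney is closed, and the blocked kidney becomes fibrotic. The labels describe primary kidney fibroblasts, obtained by digesting the tissue and enriched in serum-containing DMEM, and give no sort or gate. Neither a sham operation nor separate animals for the replicates are stated, so the spread between libraries may be technical in part.

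The protein p53 is a transcription factor that is kept low by the ubiquitin ligase Mdm2 and accumulates after DNA damage and other stress. It then switches on genes that halt the cell cycle, genes that promote apoptosis, and Mdm2 itself, which closes a feedback loop. Cdkn1a encodes p21, the p53-induced inhibitor of cyclin-dependent kinases (CDKs). The neighbouring genes Cdkn2a and Cdkn2b encode the inhibitors p16Ink4a and p15Ink4b, which act on the kinases that partner the D-type cyclins. Cdkn2a also encodes p19Arf, an unrelated protein that binds Mdm2 and so stabilises p53. In injured kidney these inhibitors are widely used as markers of cell cycle arrest and senescence.

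The p53 protein binds pairs of a short half-site, and Cdkn1a is its classical target. Promoter windows from RefSeq (GRCm38.p6, 250 bases before to 50 after a start site) were read for 9 of the 10 genes, 14 windows in all. The p53 half-site consensus, searched on both strands, was present in 3 of these windows, and in 8.36% of the 32851 windows of all genes. The stretches around the matches are shown because they hold these matches in Cdkn1a, Mdm2 and Ccng1. Capitals mark the half-site matches and, in Cdkn1a, a pair of CATG cores with 6 bases of any kind between them, which overlaps the second half-site. That pair was present in 1 of the 14 windows and in 0.712% of all windows.
Cdkn1a, chr17:29090881-29090969, plus strand: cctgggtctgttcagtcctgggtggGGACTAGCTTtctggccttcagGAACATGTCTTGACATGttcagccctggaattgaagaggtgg
Mdm2, chr10:117710910-117710969, minus strand: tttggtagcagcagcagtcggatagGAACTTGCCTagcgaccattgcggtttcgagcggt
Ccng1, chr11:40755437-40755496, minus strand: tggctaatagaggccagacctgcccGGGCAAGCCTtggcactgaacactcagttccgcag

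The Cdkn1a matches lie before the start of the upstream transcript Cdkn1a-202, and the start of the main transcript Cdkn1a-201 is 2793 bases further downstream. A match is a description of the letters and not a measured site, and the absence of a match in a window says nothing of sites elsewhere.

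Most marker lists of cell types differed between the groups, and in control the markers of proximal tubule stood far above those of fibroblasts. Summed over 10 markers, fibroblast and pericyte genes stood at 48.0 to 62.5 FPKM in control, 516 to 1029 at day 3 and 1529 to 3813 at day 7. FPKM is the number of fragments per kilobase of transcript, scaled by the mapped fragments of the library. The 10 proximal tubule markers summed to 11913 to 14491 FPKM in control, 967 to 1770 at day 3 and 559 to 688 at day 7. The 10 macrophage symbols, which cover 11 gene identifiers, summed to 581 to 868, 3279 to 5562 and 4336 to 4842 FPKM. The 8 markers of injured tubule summed to 397 to 811, 948 to 1486 and 773 to 934 FPKM. Most of that sum in control lay in Krt8 and Krt18, with means of 291 and 231 FPKM. The median log2 change of the 8 injured tubule markers was 2.18 at day 3 and 2.83 at day 7. The 5 red blood cell markers summed to 2356 to 6373 FPKM in control, 53.2 to 375 at day 3 and 61.8 to 174 at day 7. The sums of endothelial and lymphocyte markers moved less, while single markers went both ways. At day 3, 2 of 6 endothelial markers were called higher and 2 lower. Of 4 tested lymphocyte markers, 1 was called higher and 3 lower. Of all genes tested, 44.4% were called higher and 21.0% lower. The 6 endothelial markers summed to 47.3 to 51.0, 51.4 to 63.6 and 48.3 to 77.0 FPKM. Of 8 lymphocyte markers, the 6 present summed to 7.45 to 10.1, 4.47 to 9.27 and 6.73 to 10.3 FPKM. Genes of the mitochondrial genome took 25.4% to 35.9% of the summed FPKM in control and at most 7.94% after UUO. In bulk samples, fewer cells of a type and less RNA per cell cannot be told apart, and the part of these shifts in the results below was not tested.

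The CDK inhibitor Cdkn1a was higher at both times after obstruction and differed little between them. Cdkn1a (ENSMUSG00000023067.13, chromosome 17, 29090979 to 29100722 in GRCm38) measured 43.4, 65.8 and 43.8 FPKM in the control libraries. The day 3 libraries held 156, 154, 179 and 209 FPKM, and the day 7 libraries 155, 191, 168 and 169 FPKM. Every obstructed library was above every control library, while the day 3 and day 7 values overlapped. The mean went from 51.0 ± 12.8 FPKM (SD, n = 3) to 175 ± 25.7 (n = 4) and 171 ± 14.9 (n = 4), a ratio of 3.42 and 3.35. On log2(FPKM + 1), the scale of all fold changes here, the rise was 1.77 at day 3 (SE 0.16, limma adjusted p = 1.58e-06) and 1.75 at day 7 (SE 0.16, adjusted p = 1.21e-06). The difference between the days was −0.03 (SE 0.15, adjusted p = 0.929), and its sign turned under 7 of the 22 alternative settings.

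The 3 listed transcripts of Cdkn1a all rose at both times. Among these 3, Cdkn1a-201 held most of the level, at 49.7 to 75.4 FPKM in control, 176 to 238 at day 3 and 176 to 219 at day 7. The upstream Cdkn1a-202, whose start lies next to the half-sites shown above, stood at 0.228 to 1.30 FPKM in control, 2.77 to 4.40 at day 3 and 1.60 to 5.21 at day 7. The upstream transcript rose by 1.42 at day 3 (SE 0.32, adjusted p = 0.0048) and 1.44 at day 7 (SE 0.32, adjusted p = 0.00377). A gene model, AC167363.2, overlaps Cdkn1a on the other strand. The library kit keeps strand, and how strand was set in counting is not given in the sources used here.

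Cdkn2a was close to 0 in control, low at day 3 and higher at day 7. Cdkn2a (ENSMUSG00000044303.6, chromosome 4, 89274471 to 89294653) was listed at 0, 0.0957 and 0.0907 FPKM in control. It measured 0.674, 0.563, 0.509 and 0.574 FPKM at day 3, and 3.07, 2.38, 1.37 and 1.38 FPKM at day 7. The 3 groups did not overlap. Its fitted change was 0.57 at day 3 (SE 0.17, adjusted p = 0.00971) and 1.48 at day 7 (SE 0.17, adjusted p = 6.9e-06), and day 7 exceeded day 3 by 0.91 (SE 0.16, adjusted p = 0.00239). The call at day 3 was lost under median centring (0.24, adjusted p = 0.237) and under quantile normalization (0.33, adjusted p = 0.141). The gene reached the minimum for testing through its day 7 libraries, the group in which it was highest. These changes understate those of a gene this low.

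The deposited transcripts separate both products of Cdkn2a, which share their second exon and differ in the first. Cdkn2a-201 begins in the exon of p16Ink4a and Cdkn2a-202 in the exon of p19Arf, further upstream. Their coding stretches of the first exon are shown because the first exon of each is not part of the other. Lower case marks the first exon from its start codon and capitals the first 30 bases of the shared second exon (GENCODE M21, GRCm38, minus strand).
Cdkn2a-201 (p16Ink4a), first exon chr4:89281986-89282111: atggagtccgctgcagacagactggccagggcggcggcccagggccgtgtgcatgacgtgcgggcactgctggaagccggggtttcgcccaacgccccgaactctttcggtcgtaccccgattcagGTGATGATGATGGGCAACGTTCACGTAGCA
Cdkn2a-202 (p19Arf), first exon chr4:89294334-89294523: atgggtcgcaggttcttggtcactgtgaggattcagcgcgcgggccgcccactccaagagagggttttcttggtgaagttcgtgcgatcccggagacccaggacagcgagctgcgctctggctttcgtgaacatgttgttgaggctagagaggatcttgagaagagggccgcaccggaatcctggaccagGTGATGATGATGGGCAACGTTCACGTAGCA

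The first exon contributes 126 coding bases to the p16Ink4a transcript and 190 to the p19Arf transcript, so the shared second exon is read in another frame. The transcripts share 575 bases, 277 are particular to Cdkn2a-201 and 320 to Cdkn2a-202. Those of Cdkn2a-201 lie partly at its far end, which reaches 89274471 on chromosome 4, against 89274541 for Cdkn2a-202. The part of that end in the level of Cdkn2a-201 was not tested.

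The p19Arf transcript was present at both times and the p16Ink4a transcript mainly at day 7. Cdkn2a-202 was listed at 0, 0.125 and 0.0345 FPKM in control, at 0.883, 0.721, 0.666 and 0.751 FPKM at day 3, and at 2.98, 2.70, 1.32 and 1.32 FPKM at day 7. It rose by 0.74 at day 3 (SE 0.21, adjusted p = 0.0154) and 1.50 at day 7 (SE 0.21, adjusted p = 0.000166), and the difference of 0.77 between the days did not pass (SE 0.19, adjusted p = 0.0526). Like the gene, Cdkn2a-202 reached the minimum for testing through its day 7 libraries, the group in which it was highest. Cdkn2a-201 was listed at 0, 0 and 0.0886 FPKM in control. At day 3 it was listed at 0, 0.017, 0 and 0 FPKM, and at day 7 at 1.09, 0.431, 0.492 and 0.511 FPKM. Every day 7 library was above all 7 others. Its mean of 0.239 FPKM over all libraries was under the minimum of 0.5 FPKM for testing. With no minimum, an alternative chosen after seeing the data, it was higher at day 7 than at day 3 by 0.68 (SE 0.12, adjusted p = 0.0159) and than in control by 0.65 (SE 0.13, adjusted p = 0.00275). These levels are low, and whether a 0 means absence was not tested.

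**Figure D1:**
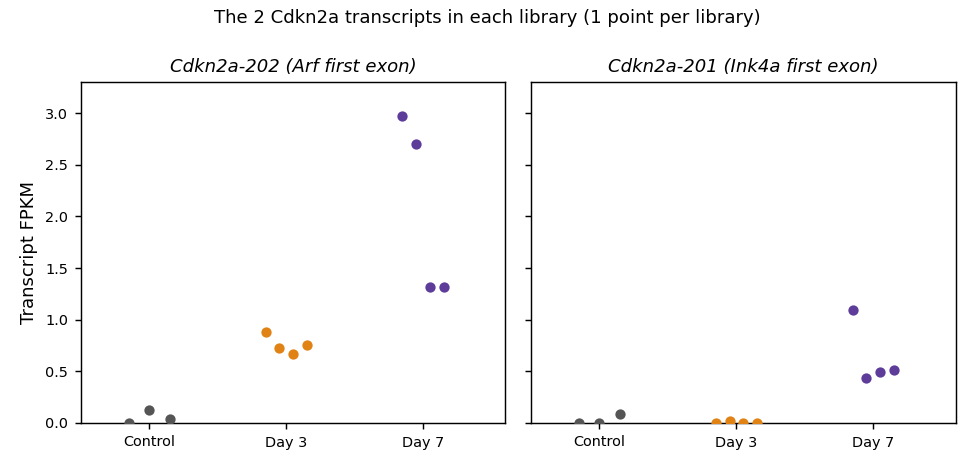
Transcript FPKM (vertical axis) of Cdkn2a-202 and Cdkn2a-201 in control, day 3 and day 7 libraries, 1 point per library. The p19Arf transcript stands at 0.666 to 0.883 FPKM at day 3, where 3 of 4 libraries list the p16Ink4a transcript at 0.

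Cdkn2b, known as a target of TGF-beta signalling in epithelial cells, differed little. Cdkn2b (ENSMUSG00000073802.4, chromosome 4, 89306289 to 89311032, next to Cdkn2a) measured 3.17, 5.40 and 3.54 FPKM in control, 3.90, 4.51, 2.92 and 4.88 at day 3, and 9.10, 6.86, 4.61 and 5.54 at day 7. The groups overlapped in all 3 comparisons. The change at day 3 was 0.01 (SE 0.21, adjusted p = 0.963). At day 7 the gene was called higher by 0.57 (SE 0.21, adjusted p = 0.0313). That call was lost under 6 of 22 alternatives, among them median centring (0.27, adjusted p = 0.28) and leaving out day 7 replicate 1 (0.42, adjusted p = 0.0884), which holds the highest value.

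Among the genes that regulate p53 in return, Mdm2 rose strongly and Ccng1 was lower. Mdm2 (ENSMUSG00000020184.15, chromosome 10, 117688875 to 117710758) measured 6.83, 5.78 and 7.53 FPKM in control, 56.0, 52.5, 84.0 and 47.6 at day 3, and 52.6, 40.6, 53.6 and 41.6 at day 7. All obstructed libraries were far above control, and the days overlapped. The mean was 8.94 times that of control at day 3 and 7.02 times at day 7, or 2.96 (SE 0.19, adjusted p = 1.13e-07) and 2.64 (SE 0.19, adjusted p = 1.37e-07) on the log2 scale. The difference between the days, −0.32 (SE 0.17, adjusted p = 0.237), did not pass.

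The Mdm2 gene value was far above what its listed transcripts add up to. For Cdkn2a, Cdkn2b and Gdf15 the gene value equalled the length-weighted sum of transcript FPKM divided by the length of the merged annotated exons. The sum came to 62.9% to 63.2% of the gene value for Cdkn1a (3 of 5 annotated transcripts listed). For Bbc3 (2 of 4 listed) it came to 64.1% to 95.3%. By the same sum, the 2 listed Mdm2 transcripts, of 9 annotated, came to 6.43% to 13.0% of the gene value across libraries; where the rest comes from was not tested. Both listed Mdm2 transcripts rose as well, at day 3 by 2.03 (SE 0.25, adjusted p = 0.000101) and 1.83 (SE 0.24, adjusted p = 0.000169).

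Ccng1 encodes cyclin G1, a p53 target that recruits a phosphatase to Mdm2. It (ENSMUSG00000020326.7, chromosome 11, 40748552 to 40755311) measured 41.4, 30.6 and 44.9 FPKM in control, 25.2, 27.2, 27.1 and 20.4 at day 3, and 31.6, 21.5, 28.8 and 29.5 at day 7. Day 3 lay below control in every library, whereas day 7 overlapped it. The log2 change was −0.61 at day 3 (SE 0.17, adjusted p = 0.00627) and −0.47 at day 7 (SE 0.17, adjusted p = 0.0246). After rescaling to TPM (the same sum in each library) neither was called, at −0.20 (adjusted p = 0.318) −0.0014 (adjusted p = 0.995), and the day 7 call was also lost without control replicate 1, control replicate 3 or day 7 replicate 2 (adjusted p = 0.0841, 0.11 and 0.0688).

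The apoptosis genes Bbc3 and Pmaip1 both rose strongly. They encode PUMA and NOXA, BH3-only proteins that neutralise anti-apoptotic members of the BCL2 family. Bbc3 (ENSMUSG00000002083.13, chromosome 7, 16308393 to 16318205) measured 3.12, 3.68 and 3.29 FPKM in control, 30.4, 27.5, 30.1 and 31.4 at day 3, and 22.6, 25.5, 31.4 and 22.1 at day 7. The libraries of each group lay close together and every library after obstruction was far above control. The mean was 8.88 times that of control at day 3 and 7.55 times at day 7. The log2 rise was 2.82 at day 3 (SE 0.13, adjusted p = 1.59e-08) and 2.58 at day 7 (SE 0.13, adjusted p = 1.55e-08).

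Pmaip1 (ENSMUSG00000024521.7, chromosome 18, 66458604 to 66465550) measured 10.9, 8.73 and 12.1 FPKM in control, 71.7, 67.3, 76.3 and 47.0 at day 3, and 102, 61.8, 136 and 80.4 at day 7. No obstructed library overlapped control, and day 7 was the most spread of the groups, with replicates 1 and 3 high. The log2 rise was 2.51 at day 3 (SE 0.24, adjusted p = 2.47e-06) and 3.00 at day 7 (SE 0.24, adjusted p = 4.07e-07). The difference between the days of 0.49 (SE 0.22, adjusted p = 0.165) did not pass; it was called with the replicate number as a block (adjusted p = 0.0497) and without day 7 replicate 2 (0.68, adjusted p = 0.0499).

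Among these p53 targets, Phlda3 and Plk2 were called higher at day 7 than at day 3. Phlda3 encodes a small protein that competes with the kinase Akt for membrane lipids. Phlda3 (ENSMUSG00000041801.5, chromosome 1, 135766119 to 135769136) measured 2.88, 3.39 and 2.80 FPKM in control, 7.42, 7.35, 4.58 and 11.1 at day 3, and 18.4, 22.2, 9.97 and 17.8 at day 7. Both times lay above control, and the days overlapped through day 3 replicate 4 and day 7 replicate 3. The log2 rise was 1.05 at day 3 (SE 0.26, adjusted p = 0.00392) and 2.12 at day 7 (SE 0.26, adjusted p = 1.54e-05). Day 7 exceeded day 3 by 1.07 (SE 0.25, adjusted p = 0.0116).

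Plk2 encodes a polo-like kinase that acts in centriole duplication and the stress response. Plk2 (ENSMUSG00000021701.8, chromosome 13, 110395046 to 110400844) measured 14.1, 16.0 and 16.2 FPKM in control, 85.9, 78.2, 67.0 and 69.3 at day 3, and 104, 109, 119 and 103 at day 7. The 3 groups did not overlap, and Plk2 stepped up from control to day 3 and again to day 7. The log2 rise was 2.20 at day 3 (SE 0.11, adjusted p = 3.62e-08) and 2.73 at day 7 (SE 0.11, adjusted p = 6.48e-09), with 0.53 between the days (SE 0.11, adjusted p = 0.00566).

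Gdf15 encodes a secreted stress cytokine of the TGF-beta superfamily and was already high in control. Gdf15 (ENSMUSG00000038508.7, chromosome 8, 70629393 to 70632456) measured 62.1, 104 and 62.2 FPKM in control, 88.6, 91.9, 76.9 and 115 at day 3, and 83.4, 99.6, 86.6 and 79.4 at day 7. Control replicate 2 lay among the obstructed libraries, while the other control libraries were below all of them. The log2 difference was 0.32 at day 3 (SE 0.19, adjusted p = 0.153) and 0.24 at day 7 (SE 0.19, adjusted p = 0.278), and neither passed. Without control replicate 2, Gdf15 was called higher at both times (adjusted p = 0.00777 at day 3 and 0.0164 at day 7).

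**Figure D2:**
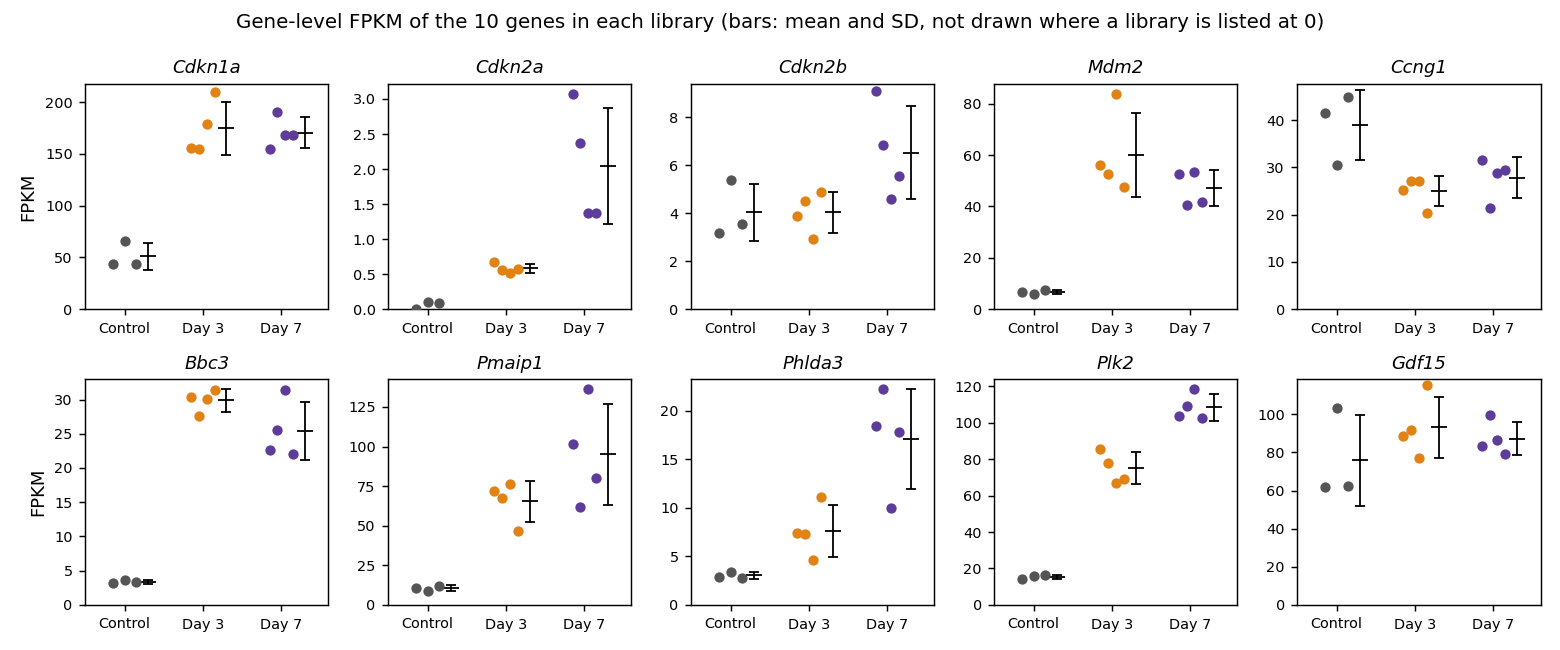
Gene FPKM (vertical axis, linear from 0, a scale for each gene) of the 10 genes in control, day 3 and day 7 libraries. Points are libraries and bars the mean and SD. Mdm2, Bbc3 and Plk2 stand clear of control at both times, Ccng1 is lower, and Cdkn2b and Gdf15 overlap control.

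Read over the 10 genes, 7 were called higher and 1 lower at day 3, and 8 higher and 1 lower at day 7. Among all 13428 genes tested, 44.4% were called higher and 21.0% lower at day 3, and 46.3% and 23.5% at day 7, which is 65.3% and 69.8% in either direction. The median change of the 10 genes was 1.41 at day 3 and 1.93 at day 7, beside 0.26 and 0.28 over all genes tested. In 7 genes every obstructed library was above every control library at day 3, and likewise at day 7, as were 44.1% and 44.7% of all genes. Ccng1 was the gene whose day 3 libraries all lay below control, as did 20.6% of all genes; at day 7 none of the 10 lay wholly below, beside 23.8% of all genes. The day 3 and day 7 comparisons share the 3 control libraries.

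The background itself moved with the scaling. At day 3, 5957 genes were called higher and 2816 lower, against 3743 and 4701 with library medians set equal and 4146 and 4358 under quantile normalization. TPM rescaling gave 8246 and 1700 and moved the median of all genes from 0.26 to 0.70. At day 7 the calls were 6217 and 3162, against 4251 and 4654, 4535 and 4512, and 8559 and 1967. Summed FPKM was 365417 to 372444 in control and 260952 to 283352 after obstruction. With library medians set equal, 6 of the 10 genes were called higher at day 3 and 7 at day 7, with 1 lower at each time. Quantile normalization gave the same counts. TPM rescaling gave 8 and 9 higher and 0 lower. The rises of Cdkn1a, Mdm2, Bbc3, Pmaip1, Phlda3 and Plk2 over control were called under each of the 22 alternatives at both times.

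Between day 3 and day 7, Cdkn2a, Phlda3 and Plk2 were called higher and by limma none of the 10 lower, at an unadjusted p under 0.05 either; array weights called 2 lower. Among all genes 7.37% were called higher and 8.37% lower. Cdkn2a reached the minimum for testing only through its day 7 libraries. Cdkn2a and Plk2 were also the genes whose day 7 libraries all exceeded the day 3 libraries, as did 7.83% of all genes. The other 7 did not pass, from −0.32 for Mdm2 to 0.56 for Cdkn2b (SE 0.20, adjusted p = 0.0806). The sum of fibroblast and pericyte markers also rose between these days, and its part in these 3 results was not tested.

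**Figure D3:**
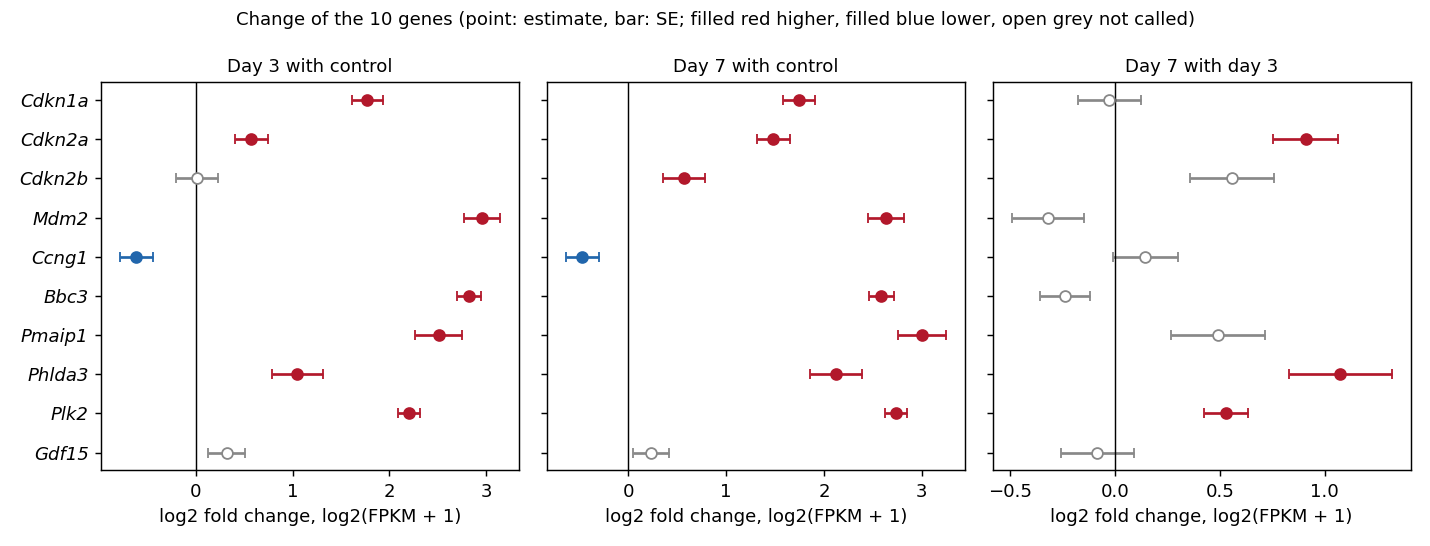
Log2 fold change on log2(FPKM + 1) (horizontal axis) of each gene in the 3 comparisons, with bars for the SE. Filled points were called (red higher, blue lower) and open points were not. Most genes sit well to the right for both days against control, and 3 are called between the days.

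At the transcript level, 15 of the 16 listed transcripts of the 10 genes were tested. Of these, 12 were called at day 3 and 12 at day 7, beside 41.2% and 45.6% of all 23910 transcripts tested (27.6% and 29.1% higher). Between the days 2 were called, that of Phlda3 (1.08, adjusted p = 0.0497, and 0.0523 with no minimum) and that of Plk2 (0.53, adjusted p = 0.0173), both higher, beside 4.26% of all called and 2.25% called higher.

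The order of the levels changed with obstruction. In control the highest of the 10 was Gdf15 (75.9 ± 23.9 FPKM, SD, n = 3), followed by Cdkn1a (51.0 ± 12.8) and Ccng1 (39.0 ± 7.47), whose ranges overlap from one to the next except between Gdf15 and Ccng1. At day 3 Cdkn1a came first and Gdf15 second (93.1 ± 16.0, n = 4), without overlap. At day 7 Cdkn1a was followed by Plk2 (108 ± 7.37, n = 4), also without overlap, and then by Pmaip1 (95.0 ± 31.9) and Gdf15 (87.2 ± 8.76), which overlapped. Cdkn2a was the lowest in every group.

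Of 23 other known p53 targets, 14 were called higher and 3 lower at day 3, and 16 and 3 at day 7, beside 44.4% and 46.3% of all genes higher and 21.0% and 23.5% lower; their medians were 0.75 and 0.69. After median centring the counts were 11 and 6, and 12 and 4. Of all 13428 genes tested, 3743 were then called higher and 4701 lower at day 3, and 4251 and 4654 at day 7. The apoptosome gene Apaf1 rose by 2.00 at day 3 (SE 0.16, adjusted p = 7.38e-07), from 0.719 to 5.86 FPKM, and the autophagy regulator Dram1 by 1.59 (SE 0.13, adjusted p = 7.84e-07), from 2.64 to 10.0 FPKM. Ppm1d, the p53-induced phosphatase WIP1, rose by 1.13 and Sesn2, another stress gene, by 1.13. The pore-forming Bax rose by 1.01 and 0.92 at the 2 times. Sesn1, a sestrin of the antioxidant response, and Btg2, an antiproliferative gene, rose by 1.31 and 1.26 at day 7. Ephx1, Ei24 and Perp were lower at both times, by −1.06, −0.85 and −0.41 at day 3, and were picked for mention after their values were seen; under TPM rescaling both calls of Perp were lost, with a day 3 value of 0.0011, as was that of Ephx1 at day 7 (−0.18, adjusted p = 0.425). Between the days, Eda2r (0.65, adjusted p = 0.00262) and Btg2 (0.48, adjusted p = 0.0394) were called. Eda2r was low, with means of 0.0846 (control), 0.587 (day 3) and 1.51 FPKM (day 7). It reached the minimum of 0.5 FPKM for testing through its day 7 libraries, the group in which it was highest.

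Of p53 itself and its regulators, 10 of 12 were in the table; 6 were called higher at day 3 and 7 at day 7, beside 44.4% and 46.3% of all genes. By limma none was lower at either time, at an unadjusted p under 0.05 either. After median centring the counts were 4 higher and 2 lower, and 3 and 1. Of all 13428 genes tested, 3743 and 4251 were then called higher, and 4701 and 4654 lower. Trp53, which encodes p53, went from a mean of 8.56 FPKM in control libraries to 24.9 FPKM on day 3 and 20.1 FPKM on day 7, a rise of 1.48 (SE 0.16, adjusted p = 6.45e-06) and 1.18 (SE 0.16, adjusted p = 3.18e-05). The checkpoint kinases Chek1 and Chek2 rose by 1.00 and 0.91 at day 3. Mdm4, the partner of Mdm2, changed by 0.28 at day 3 (adjusted p = 0.177) and was called at day 7 (0.52, adjusted p = 0.0183), a call lost after median centring (adjusted p = 0.292).

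The 4 other CDK inhibitors divided. Cdkn1c, encoding p57, fell by 1.91 at day 3 (SE 0.14, adjusted p = 3.96e-07), from 21.1 to 4.91 FPKM, and stood higher at day 7 than at day 3 by 0.85 (SE 0.13, adjusted p = 0.00155). Cdkn1b (p27), Cdkn2c (p18) and Cdkn2d (p19Ink4d) rose by 0.63, 1.12 and 1.30 at day 3 and by 0.92, 0.93 and 0.87 at day 7. The Cdkn1b call at day 3 was lost after median centring (adjusted p = 0.132).

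The cyclins, CDKs and pocket proteins numbered 15, of which 11 were called higher and 2 lower at each time, beside 44.4% and 46.3% of all genes higher and 21.0% and 23.5% lower. The counts were 11 and 3, and 10 and 3, after median centring, and 12 and 1 at both times under TPM rescaling. Median centring called 3743 and 4251 of all 13428 genes higher, and 4701 and 4654 lower. TPM rescaling called 8246 and 8559 of them higher, and 1700 and 1967 lower. Ccna2 and Cdk1, which drive S phase and mitosis, rose by 2.47 (SE 0.22, adjusted p = 1.14e-06) and 1.91 (SE 0.21, adjusted p = 6.15e-06) at day 3. The mitotic cyclin gene Ccnb1 rose by 2.05 at day 3 and was lower at day 7 than at day 3 by −0.58 (adjusted p = 0.0476), a call lost under TPM rescaling (adjusted p = 0.071). The G1 cyclin gene Ccne1 rose by 1.76 at day 3 and 2.17 at day 7, and by 0.42 between the days (adjusted p = 0.0229). Ccnd1, encoding cyclin D1, fell by 0.86 at day 3 (SE 0.13, adjusted p = 8.6e-05) and by 1.24 at day 7 (SE 0.13, adjusted p = 3.45e-06).

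Among 12 tested genes of the BCL2 family, the targets of the BH3-only proteins and their relatives, 5 were called higher and 2 lower at day 3, and 5 and 3 at day 7; with 44.4% and 46.3% of all genes called higher, these counts were near the background. The anti-apoptotic Mcl1, to which NOXA binds, rose by 2.01 at day 3 (SE 0.12, adjusted p = 8.5e-08), from 73.8 to 301 FPKM, and by 2.09 at day 7. Bcl2l11, encoding the BH3-only protein BIM, rose by 1.85 at day 3, and Bid was lower by −1.44 at day 7. Between the days Bid (−0.64, adjusted p = 0.0041) and Bik (−0.44, adjusted p = 0.0486) were lower, and the call of Bik was lost after median centring (adjusted p = 0.0532). The median of the family, 0.26 and 0.24, turned to −0.07 and −0.06 after median centring. Macrophage and tubule marker sums also differed between control and the obstructed groups, and their part in the results of these lists was not tested.

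**Figure D4:**
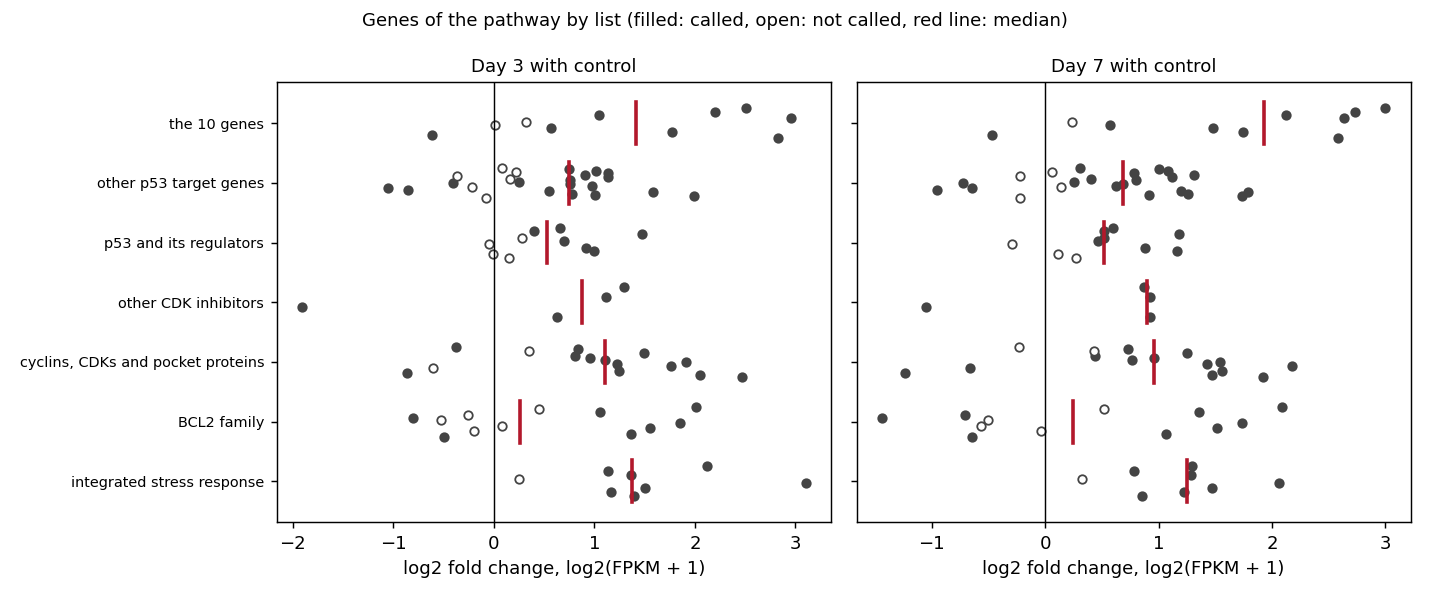
Log2 fold change on log2(FPKM + 1) (horizontal axis) of the 10 genes and of the other gene lists, at day 3 and day 7 against control, 1 point per gene. Filled points were called, open points were not, and the red line is the median. The median of the 10 genes, 1.41 and 1.93, lies beside 0.75 and 0.69 for the other p53 targets.

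The genes whose pattern was most like Cdkn1a over the 11 libraries, by Euclidean distance on centred log2(FPKM + 1), were Mafk (0.33), Cebpb (0.33), Relb (0.38), Uchl1 (0.40) and Arap1 (0.41). The nearest of the 10 genes was Plk2 (1.52), at rank 1949 of 13427, followed by Bbc3 (1.55), at rank 2059.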

How the data were processed

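Total RNA of 11 mouse libraries was sequenced from a stranded kit, per the labels' protocols. Reads were processed with cutadapt, HISAT2 and StringTie on GRCm38, per the submitters' processing notes; no versions are stated there. The deposited values are FPKM per gene and per transcript, made by the authors; low values showed no steps of single reads, so depth is unknown and intervals for counting error were not computed. Each file had 1 row with no values, which was left out.

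Genes averaging 0.5 FPKM or more across the libraries (13428, with 557 below) were tested on log2(FPKM + 1) with limma 3.58.1 (R 4.3.3), 1 mean per group, a trended prior and Benjamini-Hochberg adjustment per comparison; called means adjusted p under 0.05. All 10 genes passed this minimum. Transcripts were treated alike. Python 3.11.15 and pandas 2.3.3 made the summaries. The limma fit was tested on simulated data for genes in the day 3 with control comparison, and the other steps were not. Coordinates are those of the deposited tables; exons come from GENCODE M21 and promoter windows from RefSeq. No sequence is shown for Pmaip1. The 10 genes and all lists were chosen with earlier results of these data known. All 10 were described; from the other lists, names were drawn from the 4 called genes of largest change per list and comparison, not all of which are given, from Trp53, Mdm4, Bax, Cdkn1b, Cdkn2c and Ccnd1, and from the 5 genes nearest Cdkn1a. Scaling, pseudocount, minimum, weights, blocks and left-out libraries were the alternatives. In the main fit, replicate numbers were not taken to pair the libraries in any comparison. Every same-numbered pair in day 7 with control nevertheless deviated together (correlations 0.17, 0.43 and 0.17).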

Additional observations from a re-analysis of the deposited data

Results flagged for a closer look

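The p16Ink4a transcript Cdkn2a-201 had a library apart from the rest of its group at both times. At day 3, replicate 2 held 0.017 FPKM and the others were listed at 0. At day 7, replicate 1 held 1.09 FPKM and the others 0.431 to 0.511 FPKM. The gap to the nearest library, over the range of the group, was above Dixon's 95% critical value, which nominally flags 1 in 20 groups by chance. The day 3 and day 7 groups of all 10 genes and of all their listed transcripts were screened. Some flags would arise by chance alone at that rate. The tied zeros at day 3 do not meet its assumptions, and the value there is close to 0.

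The change after obstruction differed between day 7 and day 3 for Cdkn2a (0.91), Phlda3 (1.07) and Plk2 (0.53), each by limma's test of the difference between the days. Of these, Cdkn2a reached the minimum for testing only through its day 7 libraries.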

How the results depend on the processing

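Of the single-gene values under the alternatives, 613 kept direction and call, 14 lost the call, 12 gained one and 18 turned sign. Sign turned for Cdkn2b at day 3 under median centring (−0.32), quantile normalization (−0.31) and rescaling over nuclear genes (−0.0012), and with 1 library left out (range −0.11 to 0.20). It turned for Gdf15 under median centring at day 3 (−0.016) and day 7 (−0.067), and between the days under quantile normalization (0.0013) and without day 3 replicate 4 (0.023; range −0.17 to 0.023). For Cdkn1a between the days the turned values were 0.0054 (median centring), 0.0080 (quantile), 0.027 (TPM), 0.014 (nuclear genes) and 0.063 (array weights), with a range of −0.081 to 0.065 over the left-out libraries. The cause was not tested.

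The count of the 10 genes called lower became 0 at day 3 and day 7 under TPM, and 0 at day 7 over nuclear genes; leaving out a library gave 0 to 1 at day 7. Between the days array weights called 2 lower (Mdm2 and Bbc3) and 4453 genes of all, against 2114; leaving out a library gave 1366 (without day 7 replicate 4) to 2599, and 1403 without day 7 replicate 1. Transcripts called between the days went from 2 to 1 with pseudocount 0.1 and with the 2 groups alone, and to 1 to 3 without a library. Gdf15 gained its call under TPM (adjusted p = 0.00237 at day 3, 0.00284 at day 7) and array weights (0.000552 and 0.00252).

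With the replicate block, 8880, 9512 and 2336 genes were called at day 3, day 7 and between the days, against 8773, 9379 and 2114. Same-numbered libraries correlated in their deviations by 0.05, −0.14 and 0.23 at day 3 and by 0.10, −0.03, 0.34 and −0.03 between the days. The library closest to each was its same-numbered one for 2 of 6 at day 3, 6 of 6 at day 7 and 3 of 8 between the days. Under the block Pmaip1 was called between the days (adjusted p = 0.0497), and no other call of the 10 genes changed. Cdkn2a was not tested at a minimum of 2 FPKM.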

Other observations

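Genes of the integrated stress response, the pathway through Atf4 that slows translation and that is also known to raise Gdf15, were higher after obstruction while Gdf15 did not pass the test. Gdf15 was called at both times without control replicate 2, under TPM rescaling and under array weights. Of 8 genes of this pathway, of which Sesn2 is also counted among the p53 targets, 7 were called higher and none lower at day 3 and at day 7, beside 44.4% and 46.3% of all genes. After median centring 7 were called higher at day 3 and 6 at day 7, beside 3743 and 4251 of all 13428 genes. Chac1, which degrades glutathione, rose by 3.10 at day 3 (SE 0.33, limma adjusted p = 5.3e-06), from 1.24 to 19.2 FPKM, and Trib3, a pseudokinase, by 2.12 (SE 0.24, adjusted p = 7.69e-06). Atf4 itself rose by 1.51 at day 3 (adjusted p = 7e-07) and 1.47 at day 7 (adjusted p = 5.27e-07). Chac1 and Trib3 were lower at day 7 than at day 3, by −1.03 (adjusted p = 0.0387) and −0.82 (adjusted p = 0.0247). The call of Chac1 was lost after rescaling over nuclear genes (−1.06, adjusted p = 0.0505).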
